A study of Mus musculus with 23 samples.

Results

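The genes described here are called switched on in round spermatids, the haploid cells that follow the meiotic divisions in the mouse testis. Most of these genes already had signal in earlier fractions, so the name stands for a further rise. They were selected on their own measured levels, so their rise is how they were chosen and not a finding. For each gene the probe set whose mean over the 20 wild-type arrays was highest stood for it, and levels are log2(intensity + 1) throughout. A gene was kept where its mean over the 4 round spermatid arrays was at least 7 and lay at least 2.5 above its mean in each of the other 7 wild-type fractions, a margin of at least 5.66-fold on the linear scale. Of 18193 genes, 137 met the rule (0.753%). All 137 passed the filter on low values (log2 of at least 4 in at least 2 wild-type arrays), which 13087 genes passed in all, and 10 of them passed it only through the round spermatid arrays. Of the 137, 104 carry gene names and 33 carry clone or predicted names.

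RNA of sorted male germ cells was measured on 23 Affymetrix mouse arrays in a series on acetylated histones at meiotic recombination hotspots. The 20 wild-type arrays held cells of F1 males of C57BL/6J and DBA/2J aged 10 to 16 weeks, which were stained with a Hoechst DNA dye and sorted by flow cytometry. Round spermatids had 4 arrays, as did spermatogonia; among the spermatocytes, pre-leptotene and leptotene/zygotene had 3 arrays each, mid-pachytene and diplotene 2 each, and early and late pachytene 1 each. Spo11-/- males of 10 to 16 weeks gave 1 array for each of the first 3 fractions (spermatogonia, pre-leptotene, leptotene/zygotene); their strain is not given, and each array combined cells of 2 collections, for which 4 and 3 mice are stated. Spo11 makes the double-strand breaks of meiosis, and males without it complete no meiosis and form no spermatids. The labels call wild-type arrays of a fraction biological replicates, so a p-value reads only the spread among these arrays, whose small number limits precision. In sorted cells measured in bulk, fewer cells of a type and less RNA per cell cannot be told apart.

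Round spermatids rebuild a round cell into a sperm: an acrosome forms over the nucleus, a flagellum grows from the centriole, and histones give way to transition proteins and protamines. Transcription is high before the nucleus condenses, and many of these messengers are stored for later translation. The factor CREM, which binds cAMP response elements (CRE), and factors of the RFX family, which bind X-box sequences in promoters of cilium genes, are known regulators of genes in these cells.

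The fraction labels were compared with marker genes. The median of 10 spermatid markers (Acrv1, Spaca1, Prm1, Prm2, Tnp1, Tnp2, Tssk1, Tssk2, Catsper3 and Odf1) was between 12.62 and 13.79 in the round spermatid arrays, and between 8.38 and 13.38 in the other 16 wild-type arrays. It was 3.20, 2.87 and 3.01 in the Spo11-/- arrays. This median was thus high in every wild-type fraction, spermatogonia included, but not every marker was. In the 10 wild-type arrays before pachytene, Prm1, Prm2, Tnp1, Tnp2 and Odf1 were at or above 9.96, while Catsper3 ran from 3.87 to 6.52. Acrv1, Spaca1, Tssk1 and Tssk2 went down to 5.02, 4.65, 4.23 and 6.80 there. At most 2 of the 10 markers reached log2 4, taken here as the limit of background, in a Spo11-/- array. Prm1, a protamine gene, was between 12.70 and 15.45 in all wild-type arrays and between 3.17 and 3.35 without Spo11. None of these 10 markers met the rule. The leukocyte marker Ptprc, between 2.69 and 2.76, lay below it in all round spermatid arrays, as did the Sertoli cell markers Amh and Fshr with means of 1.98 ± 0.01 and 2.14 ± 0.01 (SD, n = 4). Over all 10 Sertoli cell markers, 2 to 6 reached background in these arrays with a summed intensity between 561 and 6074, carried by Clu, and 2 to 4 of 5 Leydig cell markers did. Of 10 peritubular and stromal markers, 8 were at or above background in each round spermatid array, with a summed intensity between 1286 and 2224 against 442 to 760 in diplotene, and the part of these other cells in the results was not tested. Spo11 itself was at 4.30, 4.80 and 5.21 in the Spo11-/- arrays against 4.60 to 6.69 in wild-type spermatogonia, 4.61 to 7.03 in pre-leptotene and 7.42 to 8.95 in leptotene/zygotene cells; whether its probe set lies in the deleted part is not known.

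Across the 137 genes the median level was 8.50, 8.63, 8.68 and 7.68 in round spermatid arrays 1 to 4. It was 4.98 and 5.98 in the diplotene arrays, 4.40 and 5.03 in mid-pachytene, 4.88 in early and 3.80 in late pachytene. Before pachytene it lay near or below background, between 3.37 and 3.91 in leptotene/zygotene, 3.18 and 3.40 in pre-leptotene and 3.48 and 4.21 in spermatogonia. Round spermatid array 4 was the lowest of its group for 98 of the 137 genes. The diplotene fraction was the next highest for 103 genes, early pachytene for 25, spermatogonia for 5 and mid-pachytene for 4. By mean, 125 of the 137 genes were at or above background in diplotene, 102 in mid-pachytene and 99 in early pachytene. The late pachytene array was below the early pachytene array for 120 genes and below the mid-pachytene mean for 121, and its spermatid marker median, 9.14, was also lower than the 11.86 of early pachytene and the 10.76 and 11.90 of mid-pachytene. The part of that signal in the dip was not tested.

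**Figure D1:**
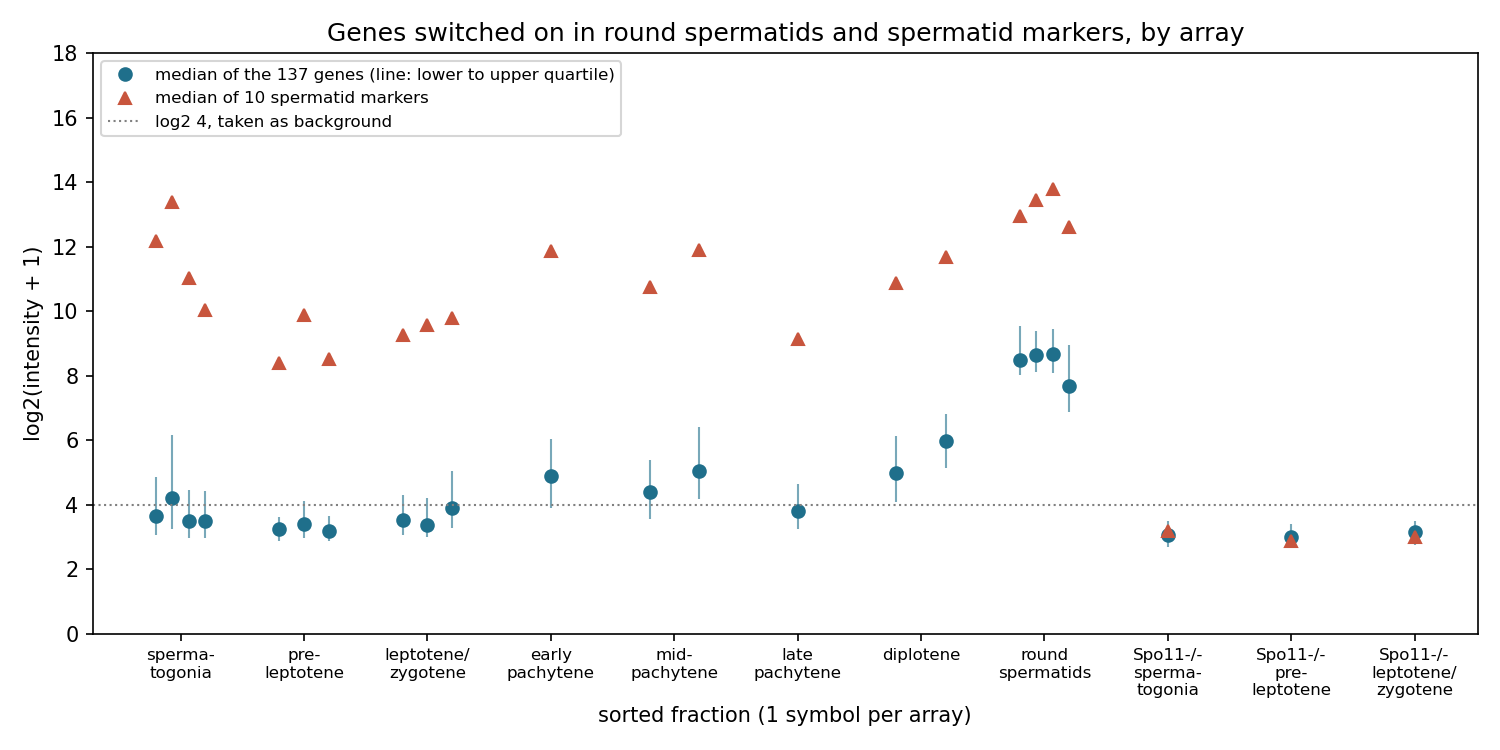
Median level of the 137 genes (circles, with lines from the lower to the upper quartile) and of 10 spermatid markers (triangles) in each of the 23 arrays, as log2(intensity + 1), with the dotted line at log2 4. The 137 genes sit between 7.68 and 8.68 in round spermatids and at or below 5.98 elsewhere, while the markers are above 8 in every wild-type array and near 3 in the 3 Spo11-/- arrays.

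In round spermatids the means of the 137 genes ran from 7.03 to 11.2, with a median of 8.23, and their SD over 4 arrays had a median of 0.57. The margin over the next highest fraction had a median of 2.77 (6.83-fold) and reached 4.64 for Dct, whose other wild-type values are all below background, so that only a bound of 3.08 holds for it. Every round spermatid array lay above every other wild-type array for 128 of the 137 genes, a separation that 11.0% of the 13087 genes past the filter showed in that direction; the rule used the same values, so nothing is read from this count. The 9 genes with overlap were Speer4a, 4930568D16Rik, Necab3, Mcu, Lrrc52, Cd96, Pate14, Fbxo24 and 1700099I09Rik. Pate14, a gene of the PATE family of secreted cysteine-rich proteins, had the widest spread, at 8.94, 8.63, 8.28 and 3.60. Just inside the margin stood Adam21 (2.506), Spertl (2.513) and Lrrc72 (2.52), and just outside it Hyal5 (2.494), Rnf148 (2.486) and Grip1 (2.481). Just inside the level stood Lrrc52 (7.03), Dct (7.08) and Fbxo24 (7.08), and just outside it Klf17 (6.99), Mucl1 (6.95) and Itgbl1 (6.91).

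The rule was repeated on 3 of the 4 round spermatid arrays, and the array left out was then read. The genes were still chosen for low values in the same 16 other wild-type arrays, so the counts are a description and no independent support. Over all 13087 genes, 18.3%, 20.6%, 20.8% and 18.9% were higher in round spermatid arrays 1, 2, 3 and 4 than in every other wild-type array. Without array 2, 121 genes met the rule, all of them were higher in array 2 than in every other wild-type array, and 106 (87.6%) met both limits there. Without array 3 there were 109 genes, all above every other wild-type array, and 95 (87.2%) met both limits. Without array 1 there were 115 genes, of which 108 were above every other wild-type array and 73 (63.5%) met both limits. Without array 4 there were 243 genes, of which 219 were above every other wild-type array in array 4 but 39 (16.0%) met both limits. Without diplotene array 1 there were 74 genes, 69 of them among the 137; among the arrays left out in turn, this one and round spermatid array 4 moved the count most.

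The gene with the largest margin was Dct, which encodes dopachrome tautomerase, an enzyme of melanin synthesis. Its level in the round spermatid arrays was 6.48, 7.45, 7.61 and 6.76, and in the other 16 wild-type arrays between 2.17 and 2.64, with a median of 2.25. All of those 16 values are below background, so the margin is a lower bound of 3.08 on the log2 scale when background is set at 4. The homeobox gene Nkx2-6 stood at 8.39, 8.85, 8.82 and 6.57 in round spermatids, against a lowest of 2.96, a median of 3.28 and a highest of 4.91 elsewhere. Gsap, whose product activates gamma-secretase, stood at 6.90, 9.28, 9.07 and 7.68, against 2.85, 2.94 and 4.91. For these 3 genes the groups of arrays did not overlap, and the arrays that were highest elsewhere were mid-pachytene and diplotene arrays. Limch1, a gene of an actin-associated protein with a LIM domain, was the tightest of the leading genes, with 7.01, 7.30, 7.14 and 7.63 against a median of 3.03 elsewhere. Cd109, which encodes a membrane protein of the alpha-2-macroglobulin family, stood at 8.45, 8.34, 7.55 and 6.93 against a median of 3.15. Mroh9, a gene of the maestro heat-repeat family, stood at 9.01, 8.89, 8.45 and 8.51 against a median of 3.57 and a highest value of 6.08 in diplotene array 2. The other genes among the 24 with the largest margins were Glt6d1, Ly6m, Lamb3, Cd5l, St8sia3, Tmco5b, Ndst3, Tmem144, Ccdc169, Adam6b, Cct8l1, Speer5-ps1, Fam187b, Dusp21, Amer2, Speer4a, Prss52 and Phf8-ps, with margins from 3.76 down to 3.04. For Gsap, Limch1 and Cd109, as for St8sia3, Ndst3 and Tmem144, the margin was below 2 when all probe sets of the gene were averaged.

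**Figure D2:**
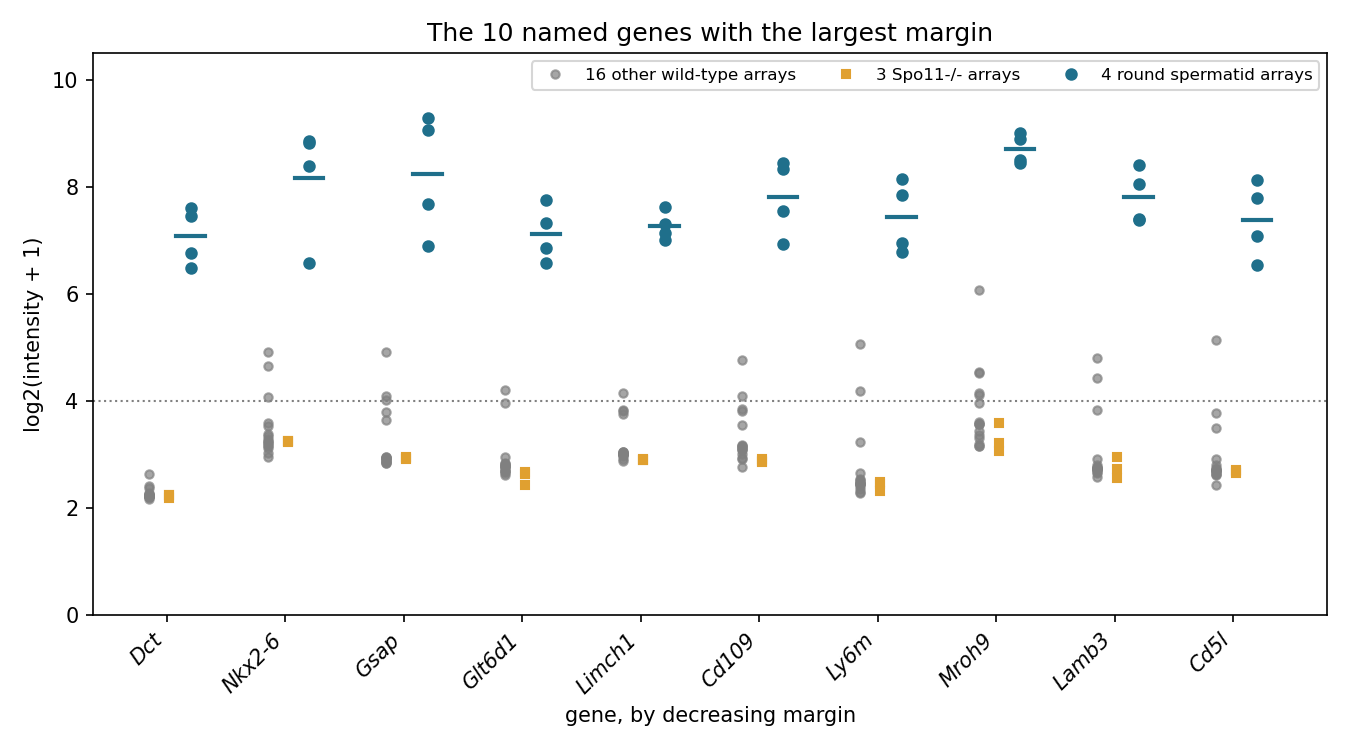
Level, as log2(intensity + 1), of the 10 named genes with the largest margins in the 4 round spermatid arrays (blue circles, bar at the mean), the other 16 wild-type arrays (grey) and the 3 Spo11-/- arrays (squares), with the dotted line at log2 4. For each of the 10 genes the lowest round spermatid array is above the highest other wild-type array, and Dct, at 6.48 to 7.61 against at most 2.64, has the widest gap.

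Promoters were read from 250 bases before to 50 after each gene's start in RefSeq's annotation of GRCm38.p6, in which 110 of the 137 genes had 136 windows. The sequences below are the last 150 bases before the start, on the gene's own strand, of 5 genes whose promoters hold a CRE or an RFX motif within that stretch. Ccin encodes calicin of the sperm head, and Fam187b and Tmem144 encode membrane proteins; in these 3 the capitals mark the palindromic CRE TGACGTCA. Iqca encodes an ATPase-domain protein of the flagellum; in Iqca and Mroh9 the capitals mark the RFX motif GTTGCCA.
Ccin, chr4:43983354-43983503, plus strand: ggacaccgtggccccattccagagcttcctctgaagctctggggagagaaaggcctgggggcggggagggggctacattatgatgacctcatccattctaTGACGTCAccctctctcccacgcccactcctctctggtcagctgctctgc
Fam187b, chr7:30976910-30977059, plus strand: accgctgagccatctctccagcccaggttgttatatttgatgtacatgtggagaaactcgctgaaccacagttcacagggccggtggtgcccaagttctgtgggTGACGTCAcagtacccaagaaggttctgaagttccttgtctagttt
Tmem144, chr3:79842680-79842829, minus strand: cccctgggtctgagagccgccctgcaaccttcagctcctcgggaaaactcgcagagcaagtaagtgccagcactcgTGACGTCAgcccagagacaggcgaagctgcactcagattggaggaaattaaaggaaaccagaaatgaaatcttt
Iqca, chr1:90153437-90153586, minus strand: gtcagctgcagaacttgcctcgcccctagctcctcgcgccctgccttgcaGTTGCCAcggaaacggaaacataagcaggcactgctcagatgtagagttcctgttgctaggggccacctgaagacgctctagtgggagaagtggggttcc
Mroh9, chr1:163085671-163085820, minus strand: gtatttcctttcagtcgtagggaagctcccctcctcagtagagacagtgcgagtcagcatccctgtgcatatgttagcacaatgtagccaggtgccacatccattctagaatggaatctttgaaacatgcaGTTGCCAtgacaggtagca

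The CRE began 50 bases before the start in Ccin, 46 in Fam187b and 74 in Tmem144, and the RFX motif 100 bases before it in Iqca and 19 in Mroh9. Fam187b has 3 windows and Tmem144 has 4, of which the one with the match is shown. On both strands, TGACGTCA was found in 5 of the 136 windows (3.68%) and in 1.79% of all 32851 windows; the other 2 genes with it were 4930568D16Rik and Celf6. Its shorter core TGACGT, which every TGACGTCA contains, was in 18 windows (13.2%) against 7.51%. GTTGCCA was in 13 windows (9.56%) against 4.38%, and within the 100 bases before the start in 9 (6.62%) against 1.83%. ACAAT, a core bound by SOX factors, was in 62 windows (45.6%) against 31.0%. The TATA box TATAAA was in 18 windows (13.2%) against 13.6%, and CCAAT in 50 (36.8%) against 37.4%. The windows of the 137 genes had a median of 4 CpG dinucleotides against 7 in all windows, so the 2 sets of windows differ in base composition. These matches describe letters in windows and were not tested.

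In the account by role that follows, 55 of the 137 genes were placed in 9 groups from textbook knowledge after their values had been seen, and examples outside the fixed naming rule were also chosen then. Genes of microtubules and the tail numbered 8 (Iqca, Saxo1, Ttll3, Cfap97d1, Eml6, Map2, Dcdc2c and Vash2), with round spermatid means between 7.89 and 11.07. Iqca was the most uniform of the high ones at 11.37, 10.80, 11.05 and 11.04; the other 16 wild-type arrays ran from 3.04 to 8.33 with a median of 4.55, and the highest were the diplotene arrays. The remaining 7 were Saxo1, of a microtubule stabiliser of the axoneme (9.21 ± 0.55), Ttll3, of an enzyme that adds glycine to tubulin (9.22 ± 0.40), Cfap97d1, of a flagellar protein (9.96 ± 0.62), Vash2, of a carboxypeptidase that removes the last tyrosine of tubulin (10.70 ± 0.46), Eml6 (8.94 ± 0.52), Map2 (7.89 ± 1.02) and the doublecortin-domain gene Dcdc2c (8.07 ± 0.43; all SD, n = 4).

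Among the genes of the sperm head, Ccin stood at 10.06, 9.16, 8.97 and 8.97 in round spermatids, against 3.32 to 7.14 with a median of 5.0 elsewhere. The highest of the other arrays was spermatogonia array 2, which also had the highest spermatid marker median outside round spermatids (13.38). Actrt3, an actin-related gene of the sperm head, stood at 8.68, 8.45, 8.72 and 8.78 against a median of 4.89 elsewhere, and Fam170b, of an acrosomal protein, had a mean of 9.76 ± 0.34 (SD, n = 4). ADAM genes, which encode membrane proteins with metalloprotease and disintegrin domains, gave 4 members: Adam6b, Adam21, Adam25 and Adam34. Adam25 stood at 8.61, 8.35, 8.20 and 7.60, against a highest value of 5.37 in early pachytene, and Adam34 at 9.89, 9.83, 9.55 and 9.16 against a highest value of 7.13. Peptidase genes Prss52 and Cpa5, the cystatin gene Cst13 and Cd109 completed this group of 8, with means between 7.82 and 10.20. ADAM genes and the Speer genes (Speer4a, Speer4b and Speer5-ps1) have close copies in the mouse genome, so their probe sets may share signal with other copies.

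Genes of ion transport numbered 6. Trpm6, a magnesium channel fused to a kinase, stood at 10.13, 9.53, 9.79 and 8.79, against 3.27 to 6.97 elsewhere. Pln, which encodes phospholamban, an inhibitor of the calcium pump of the endoplasmic reticulum, stood at 10.28, 9.25, 9.03 and 7.98, against 2.38 to 6.65. Array 1 was the highest and array 4 the lowest for both genes, and the groups did not overlap. Mcu, of the mitochondrial calcium uniporter, stood at 8.38, 7.60, 7.73 and 6.35, and its array 4 fell below the 6.47 of spermatogonia array 2. A further probe set of Mcu showed no excess, with a round spermatid mean of 4.57 and a margin of -0.19. Lrrc52, a subunit gene of the sperm potassium channel, stood at 5.50, 7.82, 8.61 and 6.22, and its array 1 lay below the 5.67 of diplotene array 2. Casq1, of calsequestrin, a calcium store protein, had a mean of 7.66 ± 1.08 and Tmem249, of a protein associated with the CatSper calcium channel, 9.97 ± 0.80 (SD, n = 4).

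Glycan genes were Glt6d1, St8sia3, Ndst3 and Mgat4e, with means between 7.13 and 8.41. Glt6d1, of a glycosyltransferase-6 family protein, stood at 6.85, 7.32, 7.76 and 6.58 against a median of 2.78. St8sia3, which encodes a sialyltransferase, stood at 8.82, 8.12, 8.12 and 7.50 against a median of 3.18. Ndst3, of an enzyme that sulfates heparan sulfate, ranged from 8.64 in array 1 to 5.84 in array 4, still above the highest of the other arrays, 4.42. Metabolic enzymes numbered 8 (Dct, Got1, Gpat3, Acsbg3, Aox3, Bco1, Gpx6 and Plb1). Got1, of the cytosolic aspartate aminotransferase, stood at 7.39, 7.73, 8.0 and 7.78 in round spermatids, and spermatogonia were its next highest fraction at 4.91 ± 1.36 (SD, n = 4). Acsbg3, of an acyl-CoA synthetase, had the highest mean of this group, 10.17 ± 0.36 (SD, n = 4).

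Of the 10 genes of transcription and signalling, Sox5 and Foxj1 are the best known. Sox5, which encodes an HMG-box factor, stood at 11.65, 11.08, 11.05 and 10.55, the highest mean of its group, and its level was already 8.43 in early pachytene. Foxj1, the master regulator of motile cilia, stood at 9.08, 9.57, 9.44 and 9.35, against 4.05 to 6.66 elsewhere with a median of 4.62. Both genes had round spermatid arrays above every other wild-type array. The others were Nkx2-6, the TALE homeobox gene Pknox2 (8.22 ± 0.17), the inhibitory SMAD gene Smad6 (8.32 ± 0.60), the phosphatase genes Dusp21 and Ptprj (7.84 ± 0.54 and 7.79 ± 0.47), the Ras exchange factor gene Rasgrf1 (7.30 ± 1.22), the RNA-binding protein gene Celf6 (8.09 ± 0.25) and the F-box gene Fbxo24 (7.08 ± 1.57; all SD, n = 4). Genes of adhesion and matrix were Lamb3, of the laminin beta-3 chain, Cntn6, Ceacam1, Cldn34d and Cemip, with means between 7.80 and 8.23. Lamb3 stood at 7.40, 8.06, 8.41 and 7.39 against a median of 2.75 elsewhere.

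Genes known from leukocytes were Nckap1l, of a regulator of actin in blood cells, Cd96, of a receptor of T and NK cells, and Cd5l, of a secreted macrophage protein. Nckap1l stood at 8.51, 8.12, 8.37 and 7.36 in round spermatids, Cd96 at 10.13, 9.04, 8.77 and 7.75, and Cd5l at 7.09, 8.12, 7.80 and 6.54. The summed intensity of 11 leukocyte markers was between 125 and 158 in these arrays, against 1230 to 3170 in wild-type spermatogonia, and 2 or 3 of the 11 were at or above background in each. By mean, Laptm5 (5.50 ± 0.33) and Adgre1 (4.72 ± 0.22; SD, n = 4) were above background and the other 9 below it, and limma called Adgre1, a macrophage marker, higher than in diplotene (1.05, SE 0.37, adjusted p = 0.0437). The part of leukocyte RNA in these 3 genes was not tested.

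Further probe sets of the same gene, which the rule did not use, numbered 79 for 44 of the genes. Over all 79, 47 had a round spermatid mean above every other fraction, 27 of them by at least 1 and 8 by at least 2.5, and the median margin was 0.21. In the round spermatid arrays 38 were below background in all 4, 14 in some and 27 in none, with median margins of -0.04, 0.54 and 2.21; being above background there makes a higher margin more likely, so the 27 give no support. Among the 27, Lrp2bp had 3 with margins of 2.34, 2.34 and 3.26, Map2 had 3 with 2.5, 1.53 and 2.55, and Tbc1d9 had 1 with -0.22. Probe sets of 1 gene disagreed for Ptprj (0.05 and 3.06), and other probe sets of genes with large margins showed little or no excess: Cd109 (-0.62), St8sia3 (0.07), Ndst3 (-0.06), Tmem144 (-0.03 and -0.02) and Gsap (0.55 and -0.04), all but 1 of Gsap's below background in all 4 arrays. With the mean of all probe sets of a gene, the margin was 1.47 in place of 3.76 for Gsap, 1.52 in place of 3.66 for Cd109, 1.75 in place of 3.68 for Limch1, 1.77 in place of 3.39 for St8sia3, 1.74 in place of 3.34 for Ndst3 and 1.13 in place of 3.33 for Tmem144. The probe sets are other readings of the same arrays and are no replicates.

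Of the 135 genes placed on a chromosome, 12 were on X (8.89%) and none on Y, against 617 of 18028 genes (3.42%) on X and 9 on Y. The X chromosome is silenced in pachytene spermatocytes and partly stays so in spermatids, where some X-linked genes and multicopy families escape. The named X-linked genes were Dusp21, Samt4, Fthl17a, Tcp11x2 and Cldn34d; the other 7 have clone names. Dusp21, of a dual-specificity phosphatase, stood at 8.06, 7.81, 8.39 and 7.12 against 2.44 to 5.15 elsewhere. Fthl17a, a ferritin-like gene, had a mean of 8.44 ± 1.02, Tcp11x2 8.96 ± 0.35, Cldn34d, of a claudin, 8.23 ± 1.01 and Samt4 8.24 ± 1.05 (SD, n = 4). Over the 12 X-linked genes the median of fraction means was 4.54 in early, 4.18 in mid- and 3.46 in late pachytene, 5.48 in diplotene and 8.24 in round spermatids; over the 123 autosomal genes it was 4.97, 4.79, 3.87, 5.37 and 8.30. In both sets the genes were low in late pachytene and high in round spermatids, and the difference between the sets was not tested. On the chromosomes, 4930513O06Rik and 4933428M09Rik are adjacent coding genes on X, and Ttc23l and C1qtnf3 on chromosome 15 have 1 coding gene between them.

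**Figure D3:**
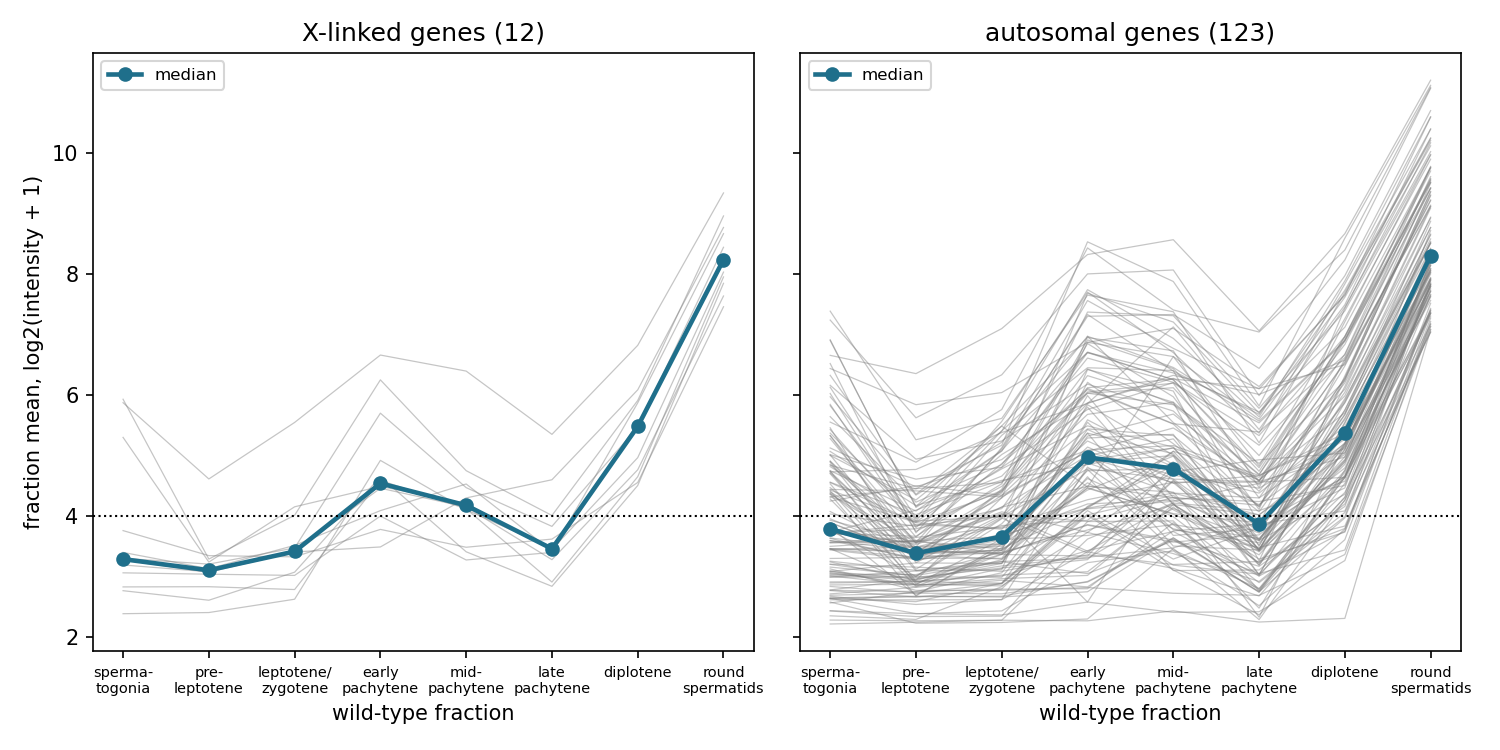
Mean level per wild-type fraction, as log2(intensity + 1), of the 12 X-linked (left) and 123 autosomal genes (right); grey lines are genes, the thick line their median and the dotted line log2 4. The medians rise from 5.48 and 5.37 in diplotene to 8.24 and 8.30 in round spermatids, with a lower point of 3.46 and 3.87 in late pachytene, which is 1 array.

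The earlier steps of the sequence, which compare fractions other than round spermatids, were tested with limma over all 13087 genes, and a gene was called where its Benjamini-Hochberg adjusted p was below 0.05 and its change at least 1 on the log2 scale. From spermatogonia to pre-leptotene cells, 5 of the 137 genes fell and none rose, against 1.64% lower and 0.0611% higher over all genes tested; in limma 36 had an unadjusted p below 0.05 for a fall and 0 for a rise. Cfap97d1, the flagellar gene, stood at 8.06, 8.57, 6.03 and 4.94 in spermatogonia and at 4.18, 4.16 and 4.13 in pre-leptotene cells, a fall by 2.74 (SE 0.63, limma adjusted p = 0.045). Apoh, which encodes beta-2-glycoprotein I, stood at 7.45, 8.85, 6.15 and 5.20, then at 3.56, 4.83 and 4.04, a fall by 2.77 (SE 0.67, limma adjusted p = 0.0494). Erich3, of a glutamate-rich ciliary protein, stood at 5.21, 7.84, 5.90 and 5.56, then at 3.41, 4.47 and 4.03, a fall by 2.16 (SE 0.48, limma adjusted p = 0.0395). The arrays of these 3 genes did not overlap, and spermatogonia array 2 was the highest for each. Plb1, of a phospholipase, and 4930407I10Rik were the other 2; all pre-leptotene values of Plb1 were below background, and with background set at 4 it fell by 0.89 at least. Spermatid markers moved with these genes, with a median of 10.03 to 13.38 in spermatogonia against 8.38 to 9.88 in pre-leptotene cells, and their part was not tested. With the replicate number as a block, 18 of the 137 genes fell, 4 of them among the 5. The count was 0 without spermatogonia array 1 or pre-leptotene array 1 or 3, 1 without spermatogonia array 2, and 11 and 26 without spermatogonia arrays 3 and 4. Shares over all genes under these settings are not given here, so these counts are not compared with the 1.64%.

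From pre-leptotene to leptotene/zygotene cells limma called none of the 137 genes, against 3.03% higher and 0.0764% lower over all genes; 9 had an unadjusted p below 0.05 for a rise and 0 for a fall. Their median change was 0.30, against 0.02 over all genes tested, and most values on both sides were below background.

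From leptotene/zygotene to mid-pachytene cells 32 of the 137 genes rose and none fell, against 14.2% higher and 15.2% lower over all genes tested. The rule keeps only genes that are low outside round spermatids, which limits how far one could fall here, and limma gave 46 unadjusted p below 0.05 for a rise and 0 for a fall. The median change was 1.01, against -0.07 over all genes. Lrrc72, a leucine-rich repeat gene, had the largest rise of the named genes: it stood at 3.56, 3.45 and 5.90 in leptotene/zygotene and at 6.60 and 7.81 in mid-pachytene, a change of 2.90 (SE 0.65, limma adjusted p = 0.00365). Tmem249 stood at 3.60, 4.35 and 5.65, then at 6.77 and 7.85 (2.78, SE 0.63, limma adjusted p = 0.00393). Prr27, a proline-rich gene, stood at 4.92, 4.87 and 5.72, then at 6.93 and 8.82 (2.71, SE 0.67, limma adjusted p = 0.00677). The arrays of these 3 genes did not overlap, and leptotene/zygotene array 3 was the highest of its group for each. Pln stood at 3.45, 3.17 and 3.48, all below background, then at 5.54 and 5.83, a rise of at least 1.69. Celf6 stood at 2.78, 2.80 and 2.81, then at 4.64 and 5.15, a rise of at least 0.90, and Iqca at 4.54, 4.51 and 6.28, then at 6.88 and 7.78 (2.22, SE 0.53, limma adjusted p = 0.00552). By role, in groups made after the values were seen, those that rose included 3 of the 8 tail genes (Iqca, Ttll3 and Dcdc2c), 3 of the 6 ion transport genes (Trpm6, Pln and Tmem249) and 4 of the 10 transcription and signalling genes (Foxj1, Sox5, Ptprj and Celf6). They also included 2 of the 8 metabolic, 1 of the 3 sperm head, 1 of the 4 glycan and 1 of the 8 ADAM and peptidase genes, and 0 of the 5 adhesion genes, 0 of the 3 genes known from leukocytes and 0 of the 12 X-linked genes. The spermatid marker median was 9.26 to 9.79 in leptotene/zygotene against 10.76 and 11.90 in mid-pachytene, and its part was not tested. The count was 6 without mid-pachytene array 2 and 16 and 17 without leptotene/zygotene arrays 1 and 2.

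From mid-pachytene to diplotene cells 5 of the 137 genes rose and none fell, against 6.98% higher and 14.5% lower over all genes tested; 16 rises and 0 falls had an unadjusted p below 0.05. Cuzd1, of a CUB and zona pellucida-like domain protein, stood at 3.31 and 3.64 in mid-pachytene, below background, and at 5.33 and 5.09 in diplotene. With background set at 4 this is a rise of at least 1.21. The limma adjusted p of 0.000851 belongs to the fit of the values as they are, not to this bound. Samt4, an X-linked testis gene, stood at 3.13 and 3.42, then at 4.83 and 6.15, a rise of at least 1.49. Ceacam1, of a cell adhesion molecule, stood at 4.11 and 3.61, then at 5.57 and 4.80 (1.33, SE 0.42, limma adjusted p = 0.0334). The other 2 were the X-linked 4933428M09Rik and 4930402K13Rik, so 3 of the 5 were among the 12 X-linked genes; the difference between X-linked and other genes was not tested. The count was 20 without diplotene array 1, 2 without diplotene array 2, and 1 and 13 without mid-pachytene arrays 1 and 2.

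The Spo11-/- arrays were compared with the wild-type arrays of the same fractions in limma, with fraction and genotype as additive terms and the 3 arrays taken as independent although they may share mice. Of the 137 genes, 73 passed the filter over these 13 arrays; 20 of them were lower in Spo11-/- cells and none higher, against 10.0% lower and 1.63% higher of the 11980 genes tested, and 0 had an unadjusted p below 0.05 for a higher level. The 73 passed mainly through wild-type arrays, so the count is not a share of all 137. In all 3 Spo11-/- arrays, 112 of the 137 genes were below background, and 63 of these were at or above it in some wild-type array of the same fractions, while 49 were below it in all 13 arrays. Cst13 stood at 5.64, 7.43, 5.46 and 4.76 in wild-type spermatogonia, at 3.24, 4.59 and 3.94 in pre-leptotene and at 5.47, 5.04 and 5.71 in leptotene/zygotene cells, and at 2.32, 2.29 and 3.20 in the Spo11-/- arrays. Its change was -2.47 (SE 0.50, limma adjusted p = 0.00664), and -1.16 with all values below background set to 4 (limma adjusted p = 0.249). Vash2 stood at 6.87, 8.83, 6.51 and 6.74 in wild-type spermatogonia, at 5.67, 6.0 and 5.20 in pre-leptotene and at 5.90, 5.96 and 7.14 in leptotene/zygotene cells, and at 3.73, 3.69 and 4.52 without Spo11, a change of -2.44 (SE 0.49, limma adjusted p = 0.00634). For both genes each Spo11-/- array was below every wild-type array of its fraction. Cfap97d1 (-2.60), Apoh (-2.46), Erich3 (-2.45) and the zinc finger gene Zfp474 (-2.31) were of like size, with limma adjusted p between 0.00898 and 0.029; all 4 were below background in the 3 Spo11-/- arrays, and with such values set to 4 their changes were -1.54, -1.46, -1.31 and -1.06. The tail genes gave 4 of the 20 (Iqca, Cfap97d1, Saxo1 and Vash2). Spermatid markers moved in the same arrays, with medians of 8.38 to 13.38 in the 10 wild-type arrays against 2.87 to 3.20, and their part was not tested. The count was 1 without the Spo11-/- spermatogonia array and 4 without the leptotene/zygotene one, and 1 (Vash2) where values below background were set to it.

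**Figure D4:**
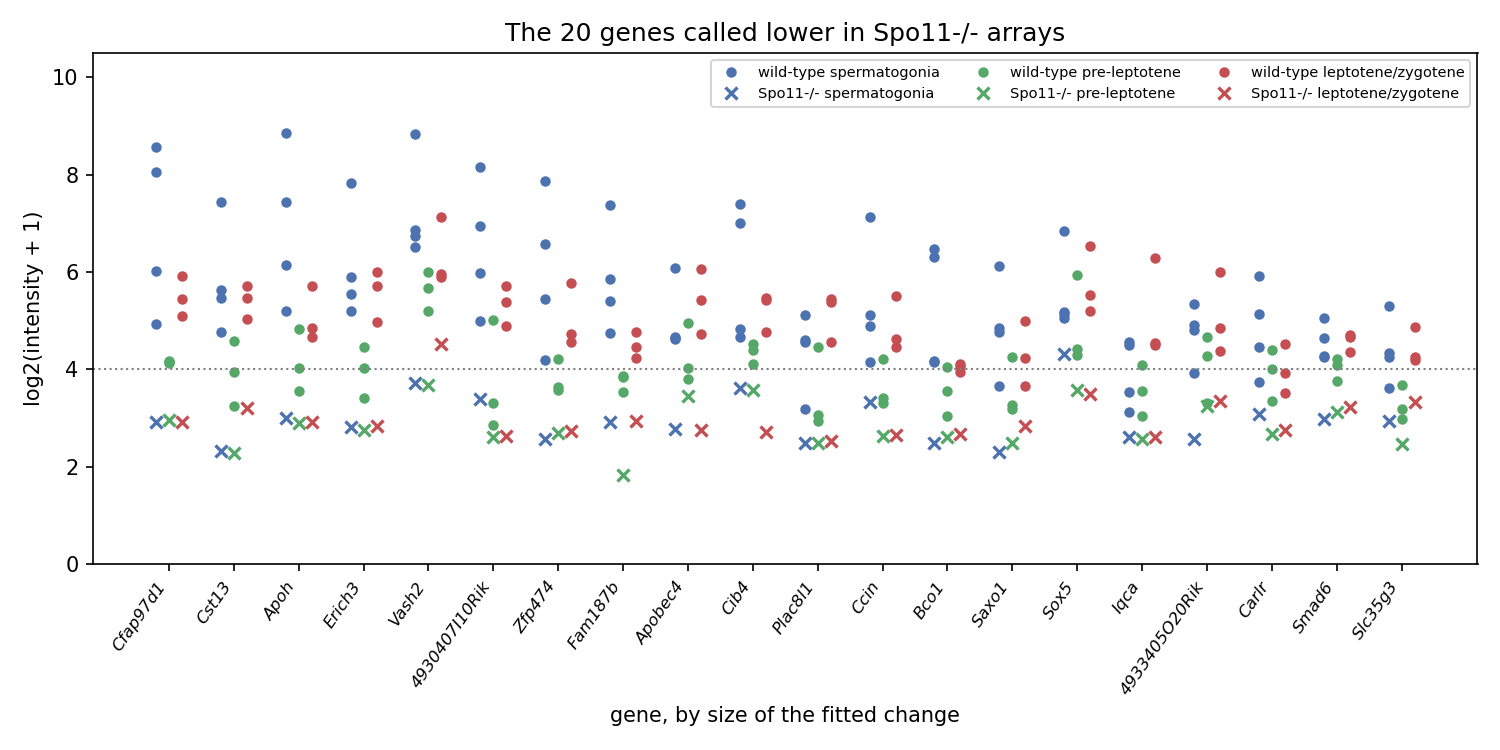
Level, as log2(intensity + 1), of the 20 genes called lower in Spo11-/- arrays, with wild-type arrays as circles and Spo11-/- arrays as crosses, coloured by fraction; genes run by decreasing size of the fitted change and the dotted line is log2 4. For 18 of the 20 genes all 3 crosses are below log2 4, and Vash2 and Sox5 are the exceptions.

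Within fractions, where there is 1 Spo11-/- array each, 61 of the 137 genes were below every wild-type array in spermatogonia, 76 in pre-leptotene and 75 in leptotene/zygotene cells, against 21.8%, 36.5% and 25.4% of all genes. By wild-type mean, 59, 24 and 52 of the 137 genes were at or above background in these fractions, against 17, 17 and 15 in the Spo11-/- arrays. Lower than every wild-type array by at least 2 were 5, 0 and 6 genes. The opposite was seen in pre-leptotene cells, where 4 genes were at least 2 above every wild-type array: Nckap1l at 8.05 against 2.90 to 3.61, Frmd4b at 7.55 against 3.43 to 3.72, Cd96 at 8.56 against 4.29 to 5.48 and Got1 at 7.74 against 2.94 to 4.40. The share of all genes with differences of at least 2 is not given here. Counts at that limit are thus not read as a result about the 137 genes. In round spermatids these 4 genes have means of 8.09, 8.03, 8.92 and 7.73. Genotype and fraction interacted in limma for Nckap1l (adjusted p = 0.00333) and Frmd4b (adjusted p = 0.0283) of the 73 genes tested; 242 of 11980 genes did, and the test takes the spread from the wild-type arrays alone. In the same array all 11 leukocyte markers were at or above background, with a summed intensity of 28788 against 163 to 840 in wild-type pre-leptotene cells, Ptprc at 12.91 against 2.68 to 5.31, Cd3e at 8.87 against 3.40 to 3.66, and 2 of the 10 spermatid markers reached background. The leukocyte marker Laptm5 went the other way, at 4.84 against 4.99 to 6.64 in wild-type pre-leptotene cells. The summed intensity of the peritubular and stromal markers was high in this array too, at 16050 against 1268 to 2529. The part of leukocyte and stromal RNA in these 4 genes was not tested.

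**Figure D5:**
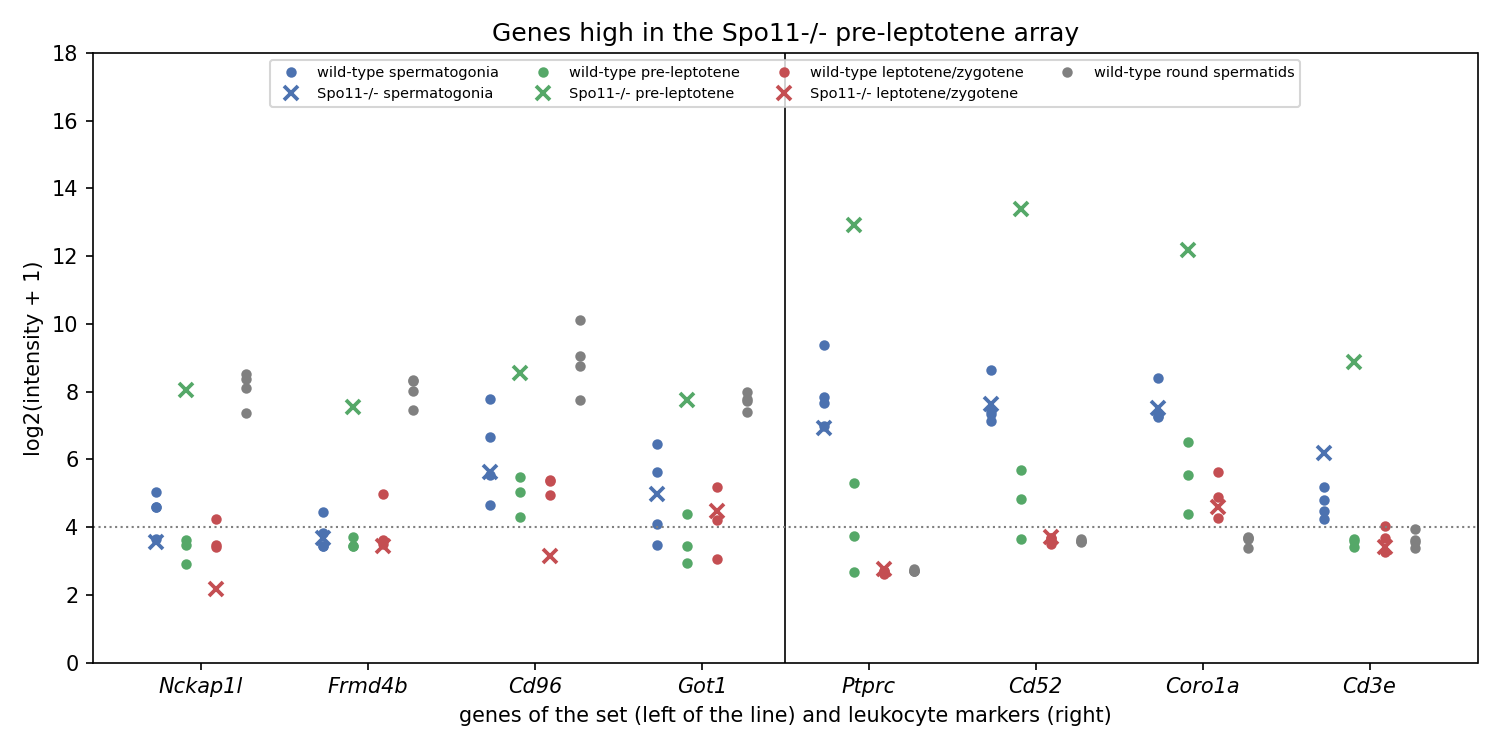
Level, as log2(intensity + 1), of Nckap1l, Frmd4b, Cd96 and Got1 (left) and of the leukocyte markers Ptprc, Cd52, Coro1a and Cd3e (right) in wild-type (circles) and Spo11-/- arrays (crosses) by fraction, with round spermatids in grey and the dotted line at log2 4. The Spo11-/- pre-leptotene array is at 7.55 to 8.56 for the 4 genes on the left and at 8.87 to 13.39 for the markers, which are below log2 4 in round spermatids.

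Genes known from spermatids were compared between round spermatids and diplotene cells in 11 lists of 187 genes in all, of which 159 were on the array and 8 are among the 137 (Actrt3, Sox5, Lrrc52, Adam21, Adam25, Adam34, Fthl17a and Fbxo24). Over all genes, limma called 12.5% higher and 12.0% lower in this step. Of the 148 other list genes tested, 59 rose and 5 fell, with a median change of 1.2 against -0.01 over all genes. In the same step 3 of 9 stromal markers rose, Dcn by 3.94, Col1a2 by 2.88 and Col3a1 by 2.40, and their part was not tested. The 137 genes all pass in this step by their choice, and nothing is read from that; the counts by list below leave out the 8. The list genes missed the rule mainly on the margin: of the 148, 137 had a round spermatid mean of at least 7, but their median margin over the next highest fraction was 0.18. Among the genes of nuclear condensation 6 of 13 rose, and the transition protein gene Tnp2 rose by 2.36 (SE 0.54, limma adjusted p = 0.0041) to a mean of 13.99 ± 0.43 (SD, n = 4), but stood at 13.81 in spermatogonia. Spermatogonia were the highest of the other fractions for 9 of these 13 genes, and for 4 of the 9, Prm1 among them, they were above round spermatids. In the acrosome and head list 12 of 23 rose and 1 fell, the sperm protein gene Izumo1 rising by 2.58 and Tex101, a germ cell surface gene, falling by 3.42 (SE 0.75, limma adjusted p = 0.00303). In the list of tail sheath and fibres 11 of 23 rose, led by Cabyr (2.57), Akap4 (2.48) and Txndc2 (2.41), of fibrous sheath proteins. Spermatogonia were above round spermatids for 8 of these 23, among them Akap4, at 12.74 against 12.55. Of the sex-linked spermatid genes 8 of 9 rose, with Actrt1, of an actin-related protein, rising by 3.76. Of the kinases 6 of 13 rose, among them Tssk3 (2.49), Tssk4 (2.47) and Tssk2 (2.44), of the testis-specific serine kinases. Of the ADAM and egg binding genes 4 of 9 rose, with Spaca6, of a sperm protein needed for fusion with the egg, rising by 2.84. Of the ubiquitin genes 5 of 13 rose, among them Ubqlnl (3.08) and Rnf148 (2.85). For 3 of these 13 spermatogonia were above round spermatids, among them Ubqlnl, at 9.86 against 8.70. The same held for 2 of the kinases, 1 sex-linked gene and 1 gene of stored mRNA. Of the channel genes 4 of 10 rose and 1 fell, with Catsper3 rising by 2.86 and Atp1a4 by 2.51. Of the transcription regulators 3 of 13 rose, among them Rfx3 (2.57), a member of the RFX family, and Fhl5 (2.35), a coactivator of CREM. In the list of head shaping 2 of 14 rose (Kif17 and Spag4) and 2 fell (Ift20 and Cntln), and in that of stored mRNA 1 of 12 rose (Paip2b) and 1 fell (Piwil1). With the 8 included, 72 of the 156 list genes tested were called, 23 without diplotene array 1 and 46 without diplotene array 2. These counts thus hold genes that pass by their choice.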

How the data were processed

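RNA of FACS-sorted mouse germ cells was measured on 23 arrays. The authors deposited intensity values on a linear scale, made with GCRMA per the submitters' processing notes; its version is not given in the sources used here. Of 45037 probe sets, 34945 had a single gene symbol, 932 several and 9160 none in the platform annotation, and 34741 were named through RefSeq's GRCm38.p6 gene table by gene identifier. Values were taken as log2(intensity + 1), with no further normalization, and 1 probe set was kept per gene. Genes at log2 4 or more in at least 2 arrays entered limma 3.58.1 (R 4.3.3; tables were made in Python 3.11.15); all 8 wild-type fractions shared 1 fit, and the Spo11-/- arrays were fitted with the 10 wild-type arrays of their fractions. A call needed a Benjamini-Hochberg adjusted p below 0.05 and a change of at least 1. The members and lists were chosen with earlier results of these data known, and the role groups after their values were seen.

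Named genes were the 24 largest margins without clone names, 3 on each side of each limit of the rule, members of the 17 gene lists, the 6 largest calls per direction, the X-linked members with the 6 largest margins and up to 3 called genes per list. Replicate numbers are not said to mark animals or days, and the main fits and their counts used no replicate block. Deviations of same-numbered spermatogonia and pre-leptotene arrays correlated at 0.53, 0.65 and 0.23, and the block was run as an alternative. Alternatives were other scalings, filters, limits of the rule, arrays left out, the replicate block and, chosen after seeing the data, values below log2 4 set to 4. The fit was tested on simulated data, where it called 57.0% to 79.0% of log2 changes of 2 and 93.0% to 99.0% of changes of 4. The lowest share at 2 was for diplotene against mid-pachytene. A gene that was not called may thus still have changed.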

Additional observations from a re-analysis of the deposited data

Results flagged for a closer look

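In groups of 4 arrays, 9 of 66 groups tested (33 genes) held an array far from the other 3. For a single group chance gives about 1 in 20. The groups are genes read on the same arrays and are not independent, so the count is not compared with that rate. In spermatogonia array 4, Adam25 was at 3.24 (others 3.63 to 3.68), Cd5l at 2.44 (2.70 to 2.71), Lamb3 at 2.58 (2.72 to 2.74) and Speer5-ps1 at 3.23 (3.53 to 3.54), all below background, and Limch1 was at 3.81 (2.89 to 3.01). In spermatogonia array 2, Glt6d1 was at 4.21 (2.69 to 2.82), Lrrc52 at 3.58 (2.18 to 2.30) and Sox5 at 6.84 (5.05 to 5.19). In round spermatid array 4, Tmco5b was at 6.48 (7.94 to 8.22). The difference between Spo11-/- and wild type varied with the fraction for Nckap1l and Frmd4b, with limma adjusted p of 0.00333 and 0.0283 for the interaction.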

How the results depend on the processing

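The list of 137 genes held 326 with a margin of 2, 32 with a margin of 3, 85 with a level of at least 8 and 210 without the early and late pachytene fractions; it ranged from 74 to 243 with 1 array left out. From spermatogonia to pre-leptotene the 5 calls became 0 with the arrays of these fractions alone, without the filter, after quantile normalization or with values below log2 4 set to 4, 1 after median centring and 18 with the replicate block, and ranged from 0 to 26 with 1 array left out. From pre-leptotene to leptotene/zygotene there were 0 calls, 0 with the replicate block, and 0 to 1 with 1 array left out. From leptotene/zygotene to mid-pachytene the 32 calls became 13 with values below log2 4 set to 4 and 60 with the replicate block, and 6 to 45 with 1 array left out. From mid-pachytene to diplotene the 5 calls became 1 with these arrays alone, 3 with values below log2 4 set to 4, 14 after quantile normalization and 18 with the replicate block, and 1 to 20 with 1 array left out. Against Spo11-/- the 20 calls became 1 with values below log2 4 set to 4, 10 without the filter, 3 lower in spermatogonia alone, 3 higher in pre-leptotene alone and 0 in leptotene/zygotene alone, and 1 to 21 with 1 array left out. The 72 list genes called in round spermatids, which include the 8 that are among the 137, became 87 with the replicate block and 23 to 73 with 1 array left out. The causes were not tested. Shares over all genes under these other settings are not given here, so the counts show only how the calls vary with the setting. In every fraction the arrays are known to share only a replicate number. Leptotene/zygotene arrays deviated with same-numbered pre-leptotene ones at r of 0.59, 0.08 and 0.27, and later fractions share 2 numbers. There r was 0.56 and 0.29 for leptotene/zygotene with mid-pachytene, and 0.59 and 0.07 for diplotene with round spermatids. For mid-pachytene with diplotene it was 0.63 for both numbers. These fractions have 2 arrays each, whose deviations mirror each other, so both numbers must give the same value. Correlations of differently numbered arrays are not given here. Of 504 margins of named genes under other settings, 481 moved by less than 1 SD and 23 by more, the lowest being 1.13; of 312 named changes, 225 stayed past the threshold and 87 did not, and none of either changed sign. The number of arrays and values near background limit the precision: 1 or 2 arrays stand for each fraction from early pachytene to diplotene.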
